A study of Mus musculus with 6 samples.

Results

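The Hox genes, homeobox transcription factors that mark position along the head-to-tail axis, were followed in foreguts of mouse embryos homozygous mutant for Gli2 and Gli3, the main transcriptional effectors of Hedgehog signaling. Members were taken by symbol alone, as every feature of the expression table named Hox, then a cluster letter from a to d, then a paralog number. This gave 30 of 22564 features, with 9 in HoxA, 9 in HoxB, 5 in HoxC and 7 in HoxD. The GENCODE M21 annotation of the same genome build (GRCm38, also called mm10) holds 39 genes with such names, and the other 9 were not analysed here. Bulk RNA-seq compared 3 Gli2-/-;Gli3-/- double mutant foreguts with 3 Gli2+/-;Gli3+/- double heterozygous foreguts, called mutants and controls below. Mutants 1, 2 and 3 had 19, 22 and 21 somites, and controls 1, 2 and 3 had 19, 24 and 21 somites. Each library came from the foregut of 1 embryo of mixed strain and unknown sex. Every control carried 1 mutant allele of both genes, and there was no wild-type group. The paper presents these heterozygotes as litter mates, both in its main text and in a line of its reporting summary. Another line of that summary speaks of separate litters for the controls and mutants, which can be read in more than 1 way. Which embryos shared a litter, if any, is therefore left unknown here. The sample titles of control 1 and mutant 1 share the number before the decimal point, and no other titles do. What these titles stand for is not given. Levels are in TPM, the abundance of a transcript corrected for its length and scaled to a fixed total for each library, so that genes can be compared within a library as well as between libraries.

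In mammals the Hox genes lie in 4 clusters on different chromosomes, and genes at the same place in different clusters form paralog groups numbered up to 13. Within a cluster, the order of the genes along the chromosome matches the order of their anterior limits in the embryo, so that low-numbered genes reach furthest toward the head, in hindbrain, pharynx and anterior gut, and high-numbered genes are restricted to the trunk, hindgut and tail. Retinoic acid activates the low-numbered end of the clusters, and Hox proteins commonly bind DNA together with cofactors of the Pbx and Meis families. In the gut tube, Hox expression is prominent in the splanchnic mesoderm, the tissue around the endoderm that receives Hedgehog signals and uses Gli factors to respond to them.

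The labels were checked first. Gli1, a direct target of Hedgehog signaling, stood at 4.49, 2.3 and 1.44 TPM in mutants 1, 2 and 3, against 37.77, 21.57 and 28.61 TPM in controls 1, 2 and 3. Gli2 and Gli3 transcripts were still detected in the mutants, at a mean of 27.5 ± 9.5 TPM for Gli2 and 75.0 ± 21.8 TPM for Gli3, against 21.1 ± 4.4 TPM and 106 ± 25 TPM in the controls (SD, n = 3 each), and gene-level values do not show whether the RNA carries the mutant lesion. Markers of foregut endoderm summed to between 714 and 980 TPM in the mutants and between 694 and 1060 TPM in the controls, with none of the 8 genes at 0 in any library. Features named only by an accession took 23.5% to 43.9% of the TPM of a library. Among the 16 Hox genes tested, control 1 held the highest value of all 6 libraries for 10, including all 8 tested members of paralog groups 4 to 7, and mutant 2 held the lowest value for 7 of those 8. Results that rest on these libraries are therefore given with and without them.

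Promoter sequences are shown for some tested members with a listed promoter. Hoxb1 and Hoxa2 were taken for their high levels. Hoxd3 and Hoxa5 were taken for the smallest p among such genes of groups 1 to 3 and of groups 4 to 7. The sequences are from RefSeq on GRCm38.p6 and run from 250 bases before to 50 bases after the start site. They are written 5′ to 3′ on the gene's own strand, with motif matches in capitals. Hoxb1 lies on the plus strand at chr11:96365508-96365807, Hoxa2 on the minus strand at chr6:52164782-52165081, Hoxd3 on the plus strand at chr2:74711743-74712042 and Hoxa5 on the minus strand at chr6:52204538-52204837.
Hoxb1: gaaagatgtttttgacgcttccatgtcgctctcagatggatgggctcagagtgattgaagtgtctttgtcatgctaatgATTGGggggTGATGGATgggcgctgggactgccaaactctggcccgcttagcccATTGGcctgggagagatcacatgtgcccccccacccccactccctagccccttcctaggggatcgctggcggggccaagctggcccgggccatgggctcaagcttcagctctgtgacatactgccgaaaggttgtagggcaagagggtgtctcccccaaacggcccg
Hoxa2: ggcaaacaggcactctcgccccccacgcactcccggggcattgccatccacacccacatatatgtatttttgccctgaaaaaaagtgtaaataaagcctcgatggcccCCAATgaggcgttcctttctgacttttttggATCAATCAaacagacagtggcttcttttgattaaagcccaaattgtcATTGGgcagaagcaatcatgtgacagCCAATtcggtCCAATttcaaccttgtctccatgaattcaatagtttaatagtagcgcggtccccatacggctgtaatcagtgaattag
Hoxd3: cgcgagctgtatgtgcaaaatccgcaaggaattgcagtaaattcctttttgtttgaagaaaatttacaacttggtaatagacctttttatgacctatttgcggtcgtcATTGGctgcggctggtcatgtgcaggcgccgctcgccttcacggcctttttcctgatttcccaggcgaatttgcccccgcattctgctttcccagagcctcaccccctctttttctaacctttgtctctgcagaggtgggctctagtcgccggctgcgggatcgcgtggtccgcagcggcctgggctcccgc
Hoxa5: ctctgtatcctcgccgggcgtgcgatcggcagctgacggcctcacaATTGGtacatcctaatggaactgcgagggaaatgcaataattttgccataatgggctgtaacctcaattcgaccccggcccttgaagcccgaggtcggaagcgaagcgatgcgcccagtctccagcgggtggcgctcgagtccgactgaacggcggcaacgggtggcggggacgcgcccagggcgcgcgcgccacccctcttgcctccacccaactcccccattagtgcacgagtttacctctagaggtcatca
A promoter was listed for 8 of the 16 tested Hox genes and for 18 of all 30. Motifs were searched on both strands in these windows and in all 32851 promoters of the table. The composite Hox-Pbx motif TGATNNAT was found in Hoxb1 at position -162 and in Hoxa2 at position -111 from the start site, which made 2 of 8 Hox promoters, against 8.85% of all promoters. The CCAAT box, CCAAT, was found in 6 of 8, against 37.4% of all promoters, with 4 copies in the Hoxa2 window. The GLI motif GACCACCCA (0.253% of all promoters), the Cdx motif TTTATNG (10.9%) and the consensus retinoic acid response element with half-sites 5 bases apart (0.00913%) and its form known from Hox genes (0.0244%) had no match in the 8 windows. These are matches of letters, and none was measured as a bound site.

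The libraries did not keep the strand, and some Hox genes overlap others. In GENCODE M21, 52.9% of the exonic bases of Hoxb3 are also covered by the antisense gene Hoxb3os, and 62.3% of those of Hoxd3 are shared with genes on the same strand, among them Hoxd4. Part of the signal of Hoxb3 and Hoxd3 could therefore belong to these neighbours. The annotation holds no such overlap for Hoxb1, Hoxa5, Hoxb4, Hoxc4, Hoxb6, Hoxb7 and Hoxd1.

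The foregut expressed the low-numbered part of the clusters. Hoxb1, which patterns the hindbrain, was the most abundant Hox gene in each of the 6 libraries and made up 24.7% to 34.5% of all Hox TPM. Averaged over the 6 libraries it stood at 74.2 TPM, followed by Hoxa2 at 32.5 TPM, Hoxb3 at 24.1 TPM and Hoxa3 at 20.7 TPM. Hoxb5 at 19.3 TPM and Hoxb4 at 18.4 TPM came next, then Hoxa5 at 12.9 TPM, Hoxa4 at 11.6 TPM and Hoxc4 at 9.78 TPM. Among these genes from Hoxa2 to Hoxc4, each pair named next to each other changed places in at least 1 library, while Hoxb1 lay above every other Hox gene in all 6. The low end of the tested genes was formed by Hoxb2, Hoxd3, Hoxc5, Hoxb6, Hoxb7 and Hoxd1, with means of 5.42 down to 1.09 TPM. The HoxB cluster supplied 51.2% to 57.9% of the Hox TPM of a library and HoxA 32.1% to 41.6%.

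The remaining 14 members did not reach the mean of 1 TPM over the 6 libraries that was required for a test. They were Hoxd4 of group 4, Hoxa6 and Hoxc6 of group 6, Hoxa7 of group 7 and all 10 genes of groups 8 to 13. Their highest single value was 1.79 TPM, for Hoxd8 in control 1. Hoxc13, Hoxd9 and Hoxd13 were listed at 0 in all 6 libraries, and none of groups 9 to 13 passed 0.41 TPM in any library, the value of Hoxb9 in control 2. Thus each library held a Hox profile that ended in the middle of the clusters, as the heat map of the members shows.

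**Figure D1:**
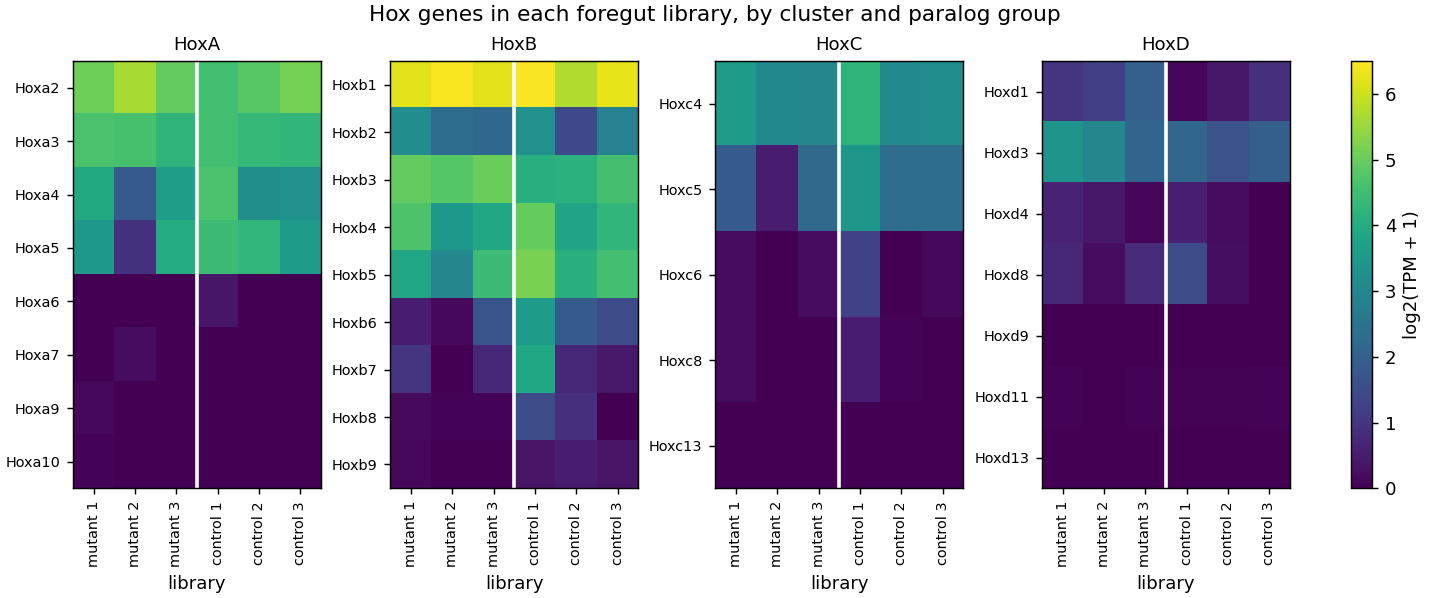
Levels of 29 of the 30 Hox genes in each library (color, log2 of TPM + 1), in 1 panel per cluster and ordered by paralog number, with mutants left of the white line and controls right of it. Signal is concentrated in groups 1 to 5, with Hoxb1 highest in every library, and genes of groups 9 to 13 do not pass 0.41 TPM.

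No Hox gene passed the test between mutants and controls. Of the 16 tested, 0 were called (limma on log2(TPM + 1), Benjamini-Hochberg over 14606 genes, limits of 0.1 for the adjusted p and 1 for the size of the log2 fold change), against 0.0411% of all genes tested, and each Hox gene had an adjusted p of 0.999. At an unadjusted p of at most 0.05 there were 3 Hox genes, Hoxb3 and Hoxd3 with higher and Hoxb6 with lower levels in mutants, where 4.09% of all genes reached that limit, 3.07% on the higher and 1.01% on the lower side. The libraries numbered 1 varied together, while those numbered 2 and 3 were hardly more alike within a number than across numbers. A fit with the library number as a block put 7 Hox genes at an unadjusted p of at most 0.05, against 9.79% of all genes, again with 0 called against 0.205%. Among them were Hoxb3, Hoxd1 and Hoxd3 on the higher side and Hoxb5, Hoxb6 and Hoxc5 on the lower side. Without both libraries numbered 1, and likewise without both numbered 2, none of the Hox genes then tested (15 and 16) reached an unadjusted p of 0.05. The values below are therefore a description of these embryos, and the p-values measure only the spread between them. In whole tissue, fewer cells of a type and less RNA per cell cannot be told apart.

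Although single genes did not pass, the fitted differences changed sign between paralog groups 3 and 4. This boundary was read from these same values, so the counts on either side of it follow partly from where it was placed. All 8 tested genes of groups 1 to 3 had a log2 fold change above 0, with a median of 0.44 (0.032 to 0.92), and all 8 tested genes of groups 4 to 7 had one below 0, with a median of -0.98 (-1.53 to -0.31). Over all genes tested the median was 0.11, with 69.8% above 0 and 30.2% below 0, so that 6 of the 8 low-numbered genes lay above the median of all genes. Spearman's rho between paralog number and log2 fold change was -0.86 over the 16 genes, which share the same 6 libraries. The medians were 0.50, 0.21 and 0.64 in groups 1, 2 and 3 (3, 2 and 3 tested genes). In groups 4 and 5 they were -0.32 and -1.14 (3 tested genes each). Groups 6 and 7 had 1 tested gene each, Hoxb6 at -1.53 and Hoxb7 at -1.11. These values did not fall evenly with paralog number. Of the 16, Hoxd1, Hoxb6 and Hoxb7 passed the filter through 1 genotype only, and the rho includes them. Leaving these 3 out gave 7 of 7 above 0 in groups 1 to 3 (median 0.39) and 6 of 6 below 0 in groups 4 and 5 (median -0.71).

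The values depended on single libraries. When libraries were scaled by the median of ratios, or rescaled without the accession-named features, the median of all genes moved to -0.015, so that genes near 0 changed sign with it. Read against that median, 6 and 5 of 8 genes of groups 1 to 3 lay above it under these scalings, and all 8 of groups 4 to 7 lay below it. Without control 1, 6 of 7 genes of groups 4 to 7 lay below 0 with a median of -0.57, and without mutant 2, 7 of 8 did with a median of -0.42. With both of these libraries left out, a choice made on the measured values that shrinks the difference by its construction, 4 of 7 lay below 0 with a median of -0.19, the exceptions being the group 4 genes Hoxa4, Hoxb4 and Hoxc4, and 8 of 8 genes of groups 1 to 3 lay above 0.

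**Figure D2:**
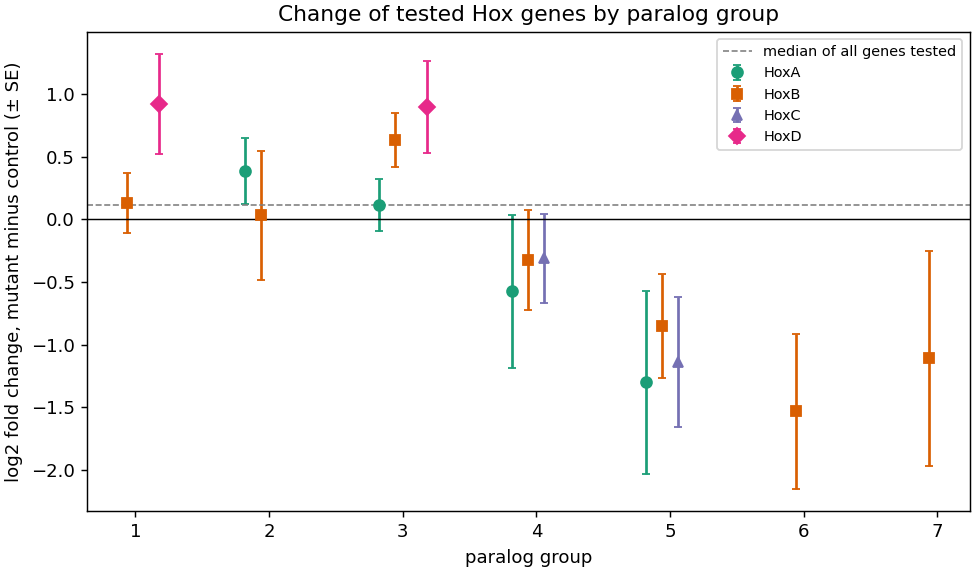
Fitted log2 fold change (mutant over control, log2(TPM + 1) scale) of 15 of the 16 tested Hox genes with standard error bars, ordered by paralog number and marked by cluster, with a dashed line at the median of all genes (0.11). Groups 1 to 3 lie above 0 (0.032 to 0.92) and groups 4 to 7 below 0 (-1.53 to -0.31), and no gene passed the adjusted test.

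Group 1 genes act earliest, in hindbrain segmentation and in neural crest. Hoxb1 stood at 72.94, 84.91 and 72.39 TPM in mutants 1, 2 and 3, against 87, 51.5 and 76.16 TPM in controls 1, 2 and 3. All 3 mutants lay inside the span of the controls, which control 2 set at its low end, and the log2 fold change was 0.13 ± 0.24 (SE). Hoxd1, at the low-numbered end of HoxD, fell outside the rule for full values and was added after its values were seen. It stood at 0.96, 1.31 and 2.98 TPM in mutants, against 0.06, 0.34 and 0.87 TPM in controls. Every mutant was above every control, a pattern found in 6.68% of all genes, and so was the mutant of each same-numbered pair, as in 25.7% of all genes, at a level close to the filter (log2 fold change 0.92 ± 0.40 SE).

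Group 2 genes pattern the hindbrain and the neural crest of the second pharyngeal arch. Hoxa2 stood at 32.28, 49.07 and 29.83 TPM in mutants 1, 2 and 3, against 22.29, 26.96 and 34.35 TPM in controls 1, 2 and 3. Mutant 2 was the highest library, and the others overlapped (log2 fold change 0.39 ± 0.26 SE, and 0.17 without mutant 2). Hoxb2 stood at 8.17, 3.92 and 3.59 TPM in mutants, against 8.83, 1.68 and 6.35 TPM in controls. Here the mean was lower in mutants (5.23 against 5.62 TPM) while the fitted log2 fold change was 0.032 ± 0.52 (SE), and its sign changed under several settings, so that no direction could be given. In GENCODE M21, 27.3% of the exonic bases of Hoxb2 are shared with the antisense gene Hoxb3os.

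Group 3 was separated by genotype as a sum. Its 3 genes, which act in the posterior pharyngeal arches and their derivatives, summed to 62.92, 56.81 and 53.04 TPM in mutants 1, 2 and 3, against 41.78, 38.12 and 44.23 TPM in controls 1, 2 and 3. Every mutant was above every control. Most of this came from Hoxb3, which stood at 29.89, 26.54 and 31.93 TPM in mutants, against 16.35, 16.83 and 23.07 TPM in controls. The mutant mean was 29.5 ± 2.7 TPM and the control mean 18.8 ± 3.7 TPM (SD, n = 3 each), a ratio of 1.57, and the groups did not overlap, as in 6.68% of all genes. The log2 fold change was 0.64 ± 0.22 (SE), with a limma adjusted p of 0.999, or 0.294 with the block. It ranged between 0.55 and 0.79 when each library was left out in turn.

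Hoxd3 showed a higher mean in mutants with more scatter. It stood at 9.21, 7.02 and 3.32 TPM in mutants 1, 2 and 3, against 3.43, 2.17 and 2.89 TPM in controls 1, 2 and 3. Mutant 3 fell just below control 1, so the groups overlapped. The ratio of means was 2.30 and the log2 fold change 0.90 ± 0.36 (SE), with an adjusted p of 0.456 with the block, and it ranged between 0.63 and 1.25 when each library was left out. Hoxa3, needed for the thymus and parathyroid, stood at 23.82, 23.25 and 17.79 TPM in mutants, against 22, 19.12 and 18.27 TPM in controls, with a log2 fold change of 0.11 ± 0.21 (SE). The differences between the group 3 paralogs were not tested.

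**Figure D3:**
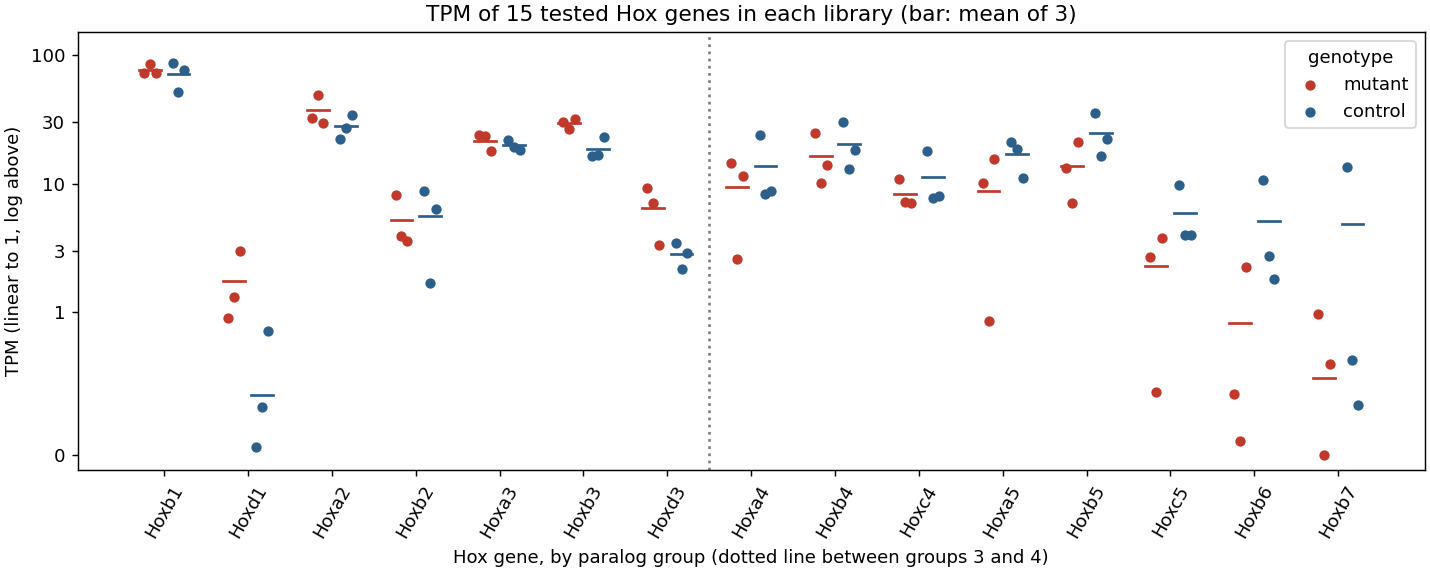
Level of 15 of the 16 tested Hox genes in every library (points, TPM on an axis linear up to 1 and logarithmic above), mutants left of controls, with a bar at the mean of the 3 libraries of each genotype. Hoxb3 (26.54 to 31.93 TPM in mutants, 16.35 to 23.07 TPM in controls) and Hoxc5 (0.44 to 3.77 TPM in mutants, 3.97 to 9.82 TPM in controls) are separated by genotype, and Hoxb1 is not.

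Group 4 genes are expressed from the posterior hindbrain and neck backward, and their levels varied more within a genotype than between genotypes. Hoxa4 stood at 14.44, 2.59 and 11.43 TPM in mutants 1, 2 and 3, against 23.97, 8.28 and 8.83 TPM in controls 1, 2 and 3. Hoxb4 stood at 24.93, 10.05 and 13.95 TPM in mutants, against 30.19, 12.97 and 18.28 TPM in controls. Hoxc4 stood at 10.83, 7.15 and 7.07 TPM in mutants, against 17.83, 7.75 and 8.03 TPM in controls. For all of them the 19-somite embryo, library 1, was the highest of its genotype, and the groups overlapped. Hoxb4 and Hoxc4 were lower in the mutant of each same-numbered pair, by a mean log2 fold change of -0.32 ± 0.40 (SE) and -0.31 ± 0.35 (SE), a pattern found in 6.37% of all genes. For Hoxa4 the value was -0.58 ± 0.61 (SE), which became 0.074 without mutant 2. Hoxb4 became -0.015 without control 1 and -0.046 without mutant 2, and Hoxc4 became 0.049 without control 1.

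Group 5 genes act at the level of the lower neck and forelimb, and Hoxa5 is needed in the mesenchyme of the lung and trachea. Hoxa5 stood at 10.03, 0.94 and 15.41 TPM in mutants 1, 2 and 3, against 21.08, 18.7 and 11.04 TPM in controls 1, 2 and 3. Mutant 2 was far below the other 5 libraries, while mutant 3 lay above control 3. The means were 8.79 ± 7.31 TPM in mutants and 16.9 ± 5.2 TPM in controls (SD, n = 3 each), and the log2 fold change of -1.30 ± 0.73 (SE) became -0.37 without mutant 2. Hoxb5 stood at 13.29, 7.05 and 21.1 TPM in mutants, against 35.33, 16.47 and 22.38 TPM in controls. It was lower in the mutant of each pair, with a log2 fold change of -0.85 ± 0.42 (SE) and an adjusted p of 0.423 with the block, and it became -0.57 without control 1 and -0.47 without mutant 2. Hoxc5 stood at 2.68, 0.44 and 3.77 TPM in mutants, against 9.82, 3.97 and 3.99 TPM in controls. It was the tested gene of groups 4 to 7 with every mutant below every control, a pattern found in 1.68% of all genes, but mutant 3 lay only just below controls 2 and 3. Its log2 fold change was -1.14 ± 0.52 (SE), with an adjusted p of 0.456 with the block, and it became -0.76 without control 1 and -0.62 without mutant 2.

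From group 6 onward the signal was low and came mainly from control 1. Hoxb6 stood at 0.43, 0.1 and 2.24 TPM in mutants 1, 2 and 3, against 10.76, 2.73 and 1.81 TPM in controls 1, 2 and 3. The ratio of control to mutant means was 5.52, but mutant 3 lay above control 3. The log2 fold change of -1.53 ± 0.62 (SE) became -0.91 without control 1 and -1.21 without mutant 2, and in neither case did the unadjusted p stay at or under 0.05. Hoxb7, added after its values were seen, stood at 0.99, 0 and 0.64 TPM in mutants, against 13.55, 0.67 and 0.35 TPM in controls. Apart from control 1 its values were alike in both genotypes, and without that library it no longer reached the filter. The same library held the highest value of Hoxb8 (0.13, 0.05 and 0.05 TPM in mutants, against 1.78, 0.82 and 0 TPM in controls), of Hoxc6 (0.15, 0 and 0.17 TPM in mutants, against 1.37, 0 and 0.1 TPM in controls) and of Hoxd8 (0.67, 0.16 and 0.71 TPM in mutants, against 1.79, 0.19 and 0 TPM in controls). Hoxb9 stood at 0.1, 0 and 0 TPM in mutants, against 0.27, 0.41 and 0.26 TPM in controls, so that each control was above each mutant at a level far under the filter. Among the 14 untested genes the mutant mean was lower for 7, higher for 4 and equal, at 0, for 3.

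The clusters hold different paralog groups among their tested genes, HoxD groups 1 and 3 and HoxC groups 4 and 5, so cluster and paralog number cannot be told apart there. The fitted medians were 0.11 for HoxA (5 genes), -0.32 for HoxB (7), -0.72 for HoxC (2) and 0.91 for HoxD (2). Without control 1 the HoxB median became 0.13 and that of HoxC -0.36, without mutant 2 they were -0.046 and -0.42, and with a filter of 5 TPM the HoxB median was 0.032. HoxA summed to between 97.4 and 118 TPM in mutants and between 84.7 and 113 TPM in controls, and HoxB to between 133 and 151 TPM in mutants and between 104 and 204 TPM in controls, both overlapping. HoxC summed to 13.8, 7.59 and 11.01 TPM in mutants 1, 2 and 3, against 29.46, 11.76 and 12.12 TPM in controls 1, 2 and 3. HoxD summed to 11.44, 8.83 and 7.14 TPM in mutants, against 5.8, 2.9 and 3.81 TPM in controls, without overlap. Hoxd3, whose exons overlap those of neighbouring genes, was the largest part of the HoxD sum in each library, and in mutant 3 Hoxd1 (2.98 TPM) came close to it (3.32 TPM). The sum of all 30 Hox genes lay between 246 and 294 TPM in mutants and between 203 and 353 TPM in controls, so the total overlapped while its composition varied.

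Composition can be read within a library, where the library total cancels. Groups 1 to 3 made up 73.0%, 88.2% and 70.9% of Hox TPM in mutants 1, 2 and 3, against 52.1%, 64.0% and 71.3% in controls 1, 2 and 3. Groups 4 and 5 made up 26.1%, 11.6% and 27.7% in mutants, against 39.3%, 33.6% and 27.8% in controls. The ratio of groups 4 to 13 over groups 1 to 3 was 0.371, 0.134 and 0.411 in mutants, against 0.921, 0.562 and 0.404 in controls. Control 3 thus had a profile like those of mutants 1 and 3, and the groups overlapped, as they did in the mean paralog number weighted by TPM (2.50, 2.07 and 2.60 in mutants, against 3.19, 2.86 and 2.52 in controls). The highest paralog number with at least 1 TPM was 5, 5 and 6 in mutants and 8, 6 and 6 in controls.

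**Figure D4:**
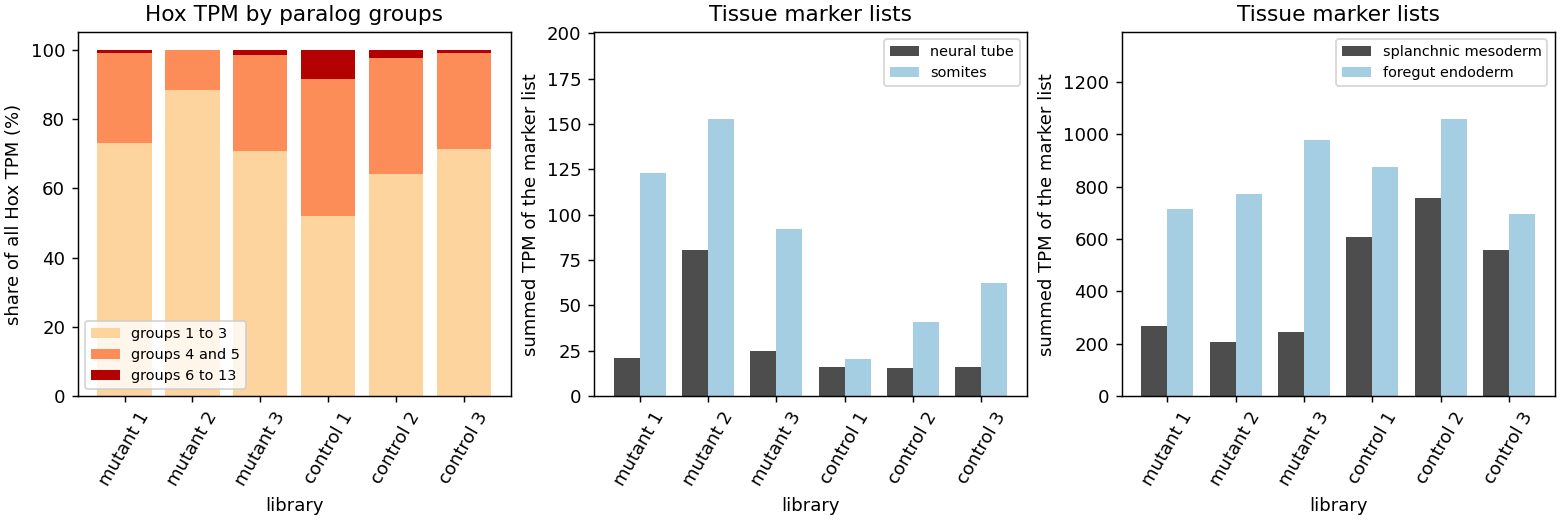
Composition of the 6 libraries, mutants left of controls: share of Hox TPM in groups 1 to 3, 4 and 5, and 6 to 13 (percent), summed TPM of neural tube and somite markers, and summed TPM of splanchnic mesoderm and foregut endoderm markers. Control 3 (71.3% in groups 1 to 3) resembles mutants 1 and 3 (73.0% and 70.9%), and mutant 2 stands apart in its neural tube markers (80.3 TPM).

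Marker lists of other tissues moved with genotype in the same libraries. Somite markers summed to 122.83, 152.78 and 92.25 TPM in mutants 1, 2 and 3, against 20.64, 40.7 and 62.63 TPM in controls 1, 2 and 3, with no more than 2 of 11 genes at 0 in a library. Of its 8 tested genes, 5 had higher levels in mutants at an unadjusted p of at most 0.05, against 3.07% of all genes, and 0 were called. They were Meox1, Meox2, Pax1, Pax9 and Tbx18, of which Pax1 and Pax9 are also expressed in pharyngeal endoderm and Tbx18 in other mesoderm. The study names Tbx18 as raised in these same mutants, so this gene was no independent measure of the amount of somite tissue. Myf5 and Pax7, markers of muscle progenitors, did not pass 0.12 TPM in any library. Neural tube markers summed to 20.88, 80.27 and 24.7 TPM in mutants, against 15.89, 15.72 and 16.19 TPM in controls. Mutant 2 held by far the most, with 0 of 14 genes at 0, against 4, 5 and 5 at 0 in controls 1, 2 and 3. Olig2, which defines ventral neural tube progenitors, stood at 0.27, 9.23 and 0 TPM in mutants and at 0 TPM in every control. Mutant 2 was also the highest library for Hoxa2, the highest mutant for Hoxb1 and the lowest library for 7 genes of groups 4 to 7. Neural crest markers summed to between 353 and 833 TPM in mutants and between 227 and 345 TPM in controls, with none at 0. On the higher side, 3 of 8 genes reached an unadjusted p of at most 0.05, against 3.07% of all genes. The part of these tissues in the Hox values was not tested.

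Splanchnic mesoderm markers moved the other way. They summed to 266.79, 207.34 and 245.08 TPM in mutants 1, 2 and 3, against 609.19, 755.9 and 558.75 TPM in controls 1, 2 and 3, with none of 10 genes at 0. The study names Osr1, Tbx4, Tbx5, Foxf1 and Foxf2 of this list as lowered in these same mutants. The sum was therefore no independent measure of the amount of tissue. Hand2 was on the higher side in mutants, with a log2 fold change of 0.41. Over 9 tested genes the median was -1.48 on the log2 scale. Of these, 6 had an unadjusted p of at most 0.05 on the lower side, against 1.01% of all genes. Tbx5, a T-box factor of heart and lung mesoderm, was called (13.4 TPM in mutants and 97.4 TPM in controls, limma adjusted p = 0.0271). Intermediate mesoderm markers summed to between 61.7 and 73.8 TPM in mutants and between 122 and 202 TPM in controls. The gap came mostly from Osr1, which the splanchnic list also holds. Wt1, which the study names as raised in these mutants, was on the higher side in mutants. Cardiomyocyte markers summed to between 133 and 1089 TPM in mutants and between 120 and 482 TPM in controls, with 0 of 10 genes at an unadjusted p of at most 0.05. Some Hox genes of the foregut are expressed in splanchnic mesoderm, and whether the amount of that tissue or the level per cell differed cannot be told apart here. Stage moved with library number, since both 19-somite embryos were numbered 1. With somite number as a covariate, 6 Hox genes reached an unadjusted p of at most 0.05, against 908 of all 14606 genes. In that fit 0 Hox genes were called, against 27 of all genes.

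Genes around the clusters gave the local context. The neighbours that flank them, which lie just outside the Hox clusters, had medians of -0.065 for HoxA (3 tested genes), -0.036 for HoxB (2), 0.072 for HoxC (4) and 0.050 for HoxD (4), and 0 at an unadjusted p of at most 0.05. Of the noncoding RNAs inside the clusters 6 of 17 listed were in the table and 3 were tested. Haglr, transcribed antisense in HoxD between Hoxd1 and Hoxd3, stood at 3.12, 3.38 and 1.92 TPM in mutants 1, 2 and 3, against 0.75, 0.25 and 0.89 TPM in controls 1, 2 and 3. Every mutant was above every control, and the fitted difference was 1.22 ± 0.33 (SE, log2 scale, adjusted p = 0.766). Hoxaas2, in HoxA, stood at 7.63, 5.38 and 2.7 TPM in mutants, against 3.03, 1.39 and 1.64 TPM in controls (1.00 ± 0.39 SE on the log2 scale, adjusted p = 0.999). Hotairm1, in HoxA, stood at 24.57, 7.25 and 13.46 TPM in mutants, against 21.44, 11.21 and 11.03 TPM in controls, with a log2 fold change of -0.037 although the mean was higher in mutants (15.1 against 14.6 TPM). Without strand, reads of these RNAs and of the Hox genes they overlap cannot be told apart. Of the microRNA hosts only Mir10a was in the table, at 5.87 TPM in mutant 1 and at 0 in the other 5 libraries.

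Lists of partners and regulators of Hox genes were read in the same way. Of the Pbx, Meis and Pknox cofactors, 8 of 9 were tested and 0 reached an unadjusted p of at most 0.05, with a median log2 fold change of 0.30. Meis2 stood at 238 ± 39 TPM in mutants and 173 ± 37 TPM in controls (SD, n = 3 each). Of 12 genes that act upstream of Hox genes, 9 were tested, with a median of 0.25. Of these, 2, among them Cyp26a1, had higher levels in mutants at an unadjusted p of at most 0.05, against 3.07% of all genes. Cyp26a1, which degrades retinoic acid, stood at 4.16, 4.79 and 3.05 TPM in mutants 1, 2 and 3, against 0.81, 1.12 and 1.24 TPM in controls 1, 2 and 3. Its log2 fold change was 1.27 ± 0.29 (SE, limma adjusted p = 0.543). It did not pass the adjusted test, although every mutant lay above every control. Aldh1a2, which makes retinoic acid, stood at 188 ± 61 TPM in mutants and 189 ± 42 TPM in controls (SD, n = 3 each).

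The Cdx and ParaHox factors, relatives of the Hox genes that mark the posterior and the middle of the gut, were near the limit of the table. Pdx1, of pancreas and duodenum, stood at 0.18, 0 and 1.88 TPM in mutants 1, 2 and 3, against 5.29, 1.65 and 0 TPM in controls 1, 2 and 3, and was the 1 tested of 4 in the table (log2 fold change -0.76). Cdx2, of the posterior gut, stood at 0.05, 0 and 0 TPM in mutants, against 1.38, 0.29 and 0 TPM in controls. For both genes control 1 was the highest library, as for Hoxb6, Hoxb7 and Hoxb8. Cdx1, also of the posterior gut, was instead highest in mutant 1, at 1.41, 0.31 and 0.08 TPM in mutants and 0.53, 0.06 and 0.25 TPM in controls. Where along the gut each foregut was cut was not tested. Of 21 Polycomb and Trithorax genes, which keep Hox genes silent or active, 20 were tested, with a median log2 fold change of 0.0087 and 0 at an unadjusted p of at most 0.05.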

How the data were processed

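RNA was measured in 6 mouse foreguts. Per the labels, libraries of poly(A) RNA were prepared by SMART-Seq v4 amplification and Nextera XT, and these kits keep no strand. Reads were aligned to mm10 inside the CSBB pipeline, and the sources used here do not give its aligner, quantifier or annotation. The authors deposited 1 table of TPM values, corrected for transcript length and library total, with 22564 features. TPM keeps no read depth, which is therefore unknown, and precision is judged from the spread among embryos without counting intervals. A value of 0 may be a transcript missed at low depth.

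Samples were grouped by genotype. The study's own test needs counts, so log2(TPM + 1) was tested by limma 3.58.1 under R 4.3.3 (moderated test, trended variance, two-sided, Benjamini-Hochberg) over the 14606 genes whose mean reached 1 TPM. This scale understates the change of low genes. The limits (adjusted p of 0.1, log2 fold change of 1 in size) are those of the study's methods. With 3 against 3, an exact test has a smallest p of 0.1. Over all genes, the deviations of same-numbered libraries from their group means correlated at 0.67, 0.37 and 0.15, each over 0.1, so the number was treated as a pairing and a fit with it as a block is given. Differently numbered pairs ranged between -0.5 and 0.24, and the third pair was exceeded by mutant 2 with control 3 and mutant 3 with control 2 (0.24 each). Deviations cancel out within a genotype, so a high value for the first pair by itself raises those among the other libraries. Among libraries 2 and 3, 0.37 and 0.15 within a number stood against 0.24 and 0.24 across numbers. The evidence for a pairing thus rests on the first pair. What a number means is not in the labels. The pairing was therefore read from these same expression values, and results with the block hold only if it is real.

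Full values are given for Hox genes that averaged 5 TPM or more in either genotype or had an unadjusted p of at most 0.05. From the lists of neighbours, noncoding RNAs, microRNA hosts, cofactors, ParaHox and Cdx factors, upstream regulators, chromatin genes and tissue markers, genes at an unadjusted p of at most 0.05 and those with the highest means were eligible. The members and lists were chosen with earlier results of these data known. Alternatives were another pseudocount, filter, limit and scaling, somite number, the block and leaving out libraries. The test was checked on simulated data. Some values are not reported here. Promoters came from RefSeq (GRCm38.p6).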

Additional observations from a re-analysis of the deposited data

How the results depend on the processing

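No Hox gene was called under any setting run. The count of all genes called, 6, became 3 without a filter, 1 at a mean of at least 5 TPM, 3 at an adjusted p of at most 0.05, 16 when rescaled without accession-named features, 27 with somite number, 30 with the replicate block, and 0 without both libraries numbered 1, without both numbered 2 and without control 1 and mutant 2 together (262 to 650 genes then had an unadjusted p of at most 0.05). It was 0 to 7 with 1 library left out. The 3 Hox genes at an unadjusted p of at most 0.05 became 1 at 5 TPM, 6 with somite number, 7 with the replicate block, and 0 in each fit without 2 libraries. They were 1 to 5 with 1 library left out: 1 without control 1 or without mutant 2 and 5 without mutant 3. The last 2 choices of 2 libraries, numbered 2 and control 1 with mutant 2, were added after seeing the data, and the second was made on the outcome.

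Of 279 values for single Hox genes, 18 changed sign. Median-of-ratios scaling and rescaling moved the median of all genes from 0.11 to -0.015, and genes near 0 could turn with it. The shift differed by gene, as scaling came before the pseudocount, and rescaling took Hoxd1 from 0.92 to 1.07. Under both scalings in turn, Hoxa3 gave -0.023 and -0.031, Hoxb1 -0.013 and -0.021 and Hoxb2 -0.074 and -0.079. Hoxb2 gave -0.018 with a pseudocount of 5, -0.21 with somite number and -0.39 without both libraries numbered 2, and Hoxb1 then gave -0.16. With 1 library left out Hoxa4 spanned -0.98 to 0.074, Hoxb1 -0.088 to 0.28, Hoxb2 -0.52 to 0.41, Hoxb4 -0.66 to -0.015 and Hoxc4 -0.50 to 0.049. Without control 1 and mutant 2, Hoxa4, Hoxb4 and Hoxc4 gave 0.54, 0.26 and 0.14, and the medians were -0.19 for groups 4 to 7, 0.24 for HoxB and -0.056 for HoxC. The HoxD median, 0.91 over 2 genes, was 1.55 and 0.42 with pseudocounts of 0.1 and 5, and 0.83 to 1.25 with 1 library left out. The other 95 of 101 medians moved by less than 1 SD. The causes were not tested, other than fewer samples. The groups 4 to 7 median spanned -1.19 to -0.42 and that of groups 1 to 3 0.27 to 0.61 with 1 library left out.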
